A study of Homo sapiens with 12 samples.

Results

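ABCG2 and 9 genes that lie around it on the long arm of chromosome 4 (4q21-q22) were followed through 12 RNA-seq libraries. ABCG2 encodes BCRP, the breast cancer resistance protein, and the other genes were PKD2, PPM1K, SPP1, SPARCL1, NUDT9, HSD17B11, HERC3, AFF1 and KLHL8. These 10 of the 58735 genes in the tables were listed by symbol and position and chosen by readout, that is, with their FPKM in SK/EPI and SK-BR-3 cells already known. Their values in that comparison are therefore given as a description, without a test. The response to the BCRP siRNA was measured in other libraries and was tested. Whether that response was also known when the genes were listed is not stated, so its p-values may not be independent of the choice.

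SK-BR-3, an established line of human breast cancer cells, came from ATCC and was left untreated here. SK/EPI is a single epirubicin-resistant line that had been raised from SK-BR-3 through stepwise growth in more and more epirubicin, an anthracycline. SK/EPI-siNC and SK/EPI-siBCRP cells were SK/EPI cells that received, with Lipofectamine RNAiMax for 48 h, a control siRNA or an siRNA against BCRP. Each of the 4 groups had 3 libraries, numbered 1 to 3, of poly-A RNA. SK/EPI-siNC and SK/EPI-siBCRP therefore share the resistant background, and no SK-BR-3 cells received an siRNA. The sources name triplicates but not separate selections, so p-values measure only the spread between these libraries, which may be technical. Resistance and other differences between a derived line and its parent cannot be told apart here.

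BCRP is an ABC transporter that works as a dimer and uses ATP to pump drugs, mitoxantrone among them, out of cells. Its gene responds to several ligand- and stress-activated transcription factors. The genes beside it are not transporters and have unrelated tasks. PKD2 encodes polycystin-2, a cation channel of cilia and the endoplasmic reticulum, and SPP1 encodes osteopontin, a secreted glycoprotein that binds integrins and CD44.

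In the GENCODE 29 annotation of GRCh38, ABCG2 (ENSG00000118777) spans chr4:88090264-88231322 on the minus strand. PKD2 (chr4:88007668-88077777) ends 12.5 kb from it on the centromere side, and SPP1 (chr4:87975650-87983426) 107 kb away. PPM1K (chr4:88257620-88284769) begins 26.3 kb and HERC3 (chr4:88592423-88708542) 361 kb away on the other side. Further towards the centromere lie SPARCL1 at 559 kb, NUDT9 at 631 kb, HSD17B11 at 699 kb, KLHL8 at 850.0 kb and AFF1 at 949 kb. All 10 thus lie within 1 Mb of the ABCG2 gene body.

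The siRNA is shown because it fixes which transcript was targeted. The labels say only siBCRP; the study's list of oligos holds siBCRP#1, which it names for the RNA-seq. Capitals mark bases 2 to 8 of the guide strand, its seed, and the matching bases of the ABCG2 transcript.
siBCRP#1, sense strand: gggauacuuugaaucagcugguuau
siBCRP#1, guide strand: aUAACCAGcugauucaaaguauccc
ABCG2 target site: gggatactttgaatcagCTGGTTAt

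The target site lies in coding sequence at bases 1368 to 1392 of the 4479-base transcript ENST00000237612.7. It crosses an exon junction, with 20 bases in exon 7 (chr4:88118109-88118128) and 5 bases in exon 8 (chr4:88115054-88115058) of 16. The complete site was found in the transcripts of 1 gene, ABCG2. The 7 letters CTGGTTA that match the seed occurred 2 times in the ABCG2 transcript and 1 time in that of SPARCL1, and in none of the transcripts taken for the other 8 genes. Over 19684 protein-coding genes, 13.9% had such a match. KLHL8 had none, and its longest run shared with the target site was 9 bases. Among genes tested with siBCRP, the median log2 difference was -0.068 with such a match (n = 2021) and 0.019 without (n = 10906). For the seed of the sense strand the medians were -0.021 with a match (n = 1510) and 0.0097 without (n = 11417). Matches were counted in the longest protein-coding transcript of each gene, and transcript length was not accounted for. SPARCL1 also held 1 match to the seed of the sense strand. With a single siRNA sequence, loss of BCRP and off-target effects cannot be told apart.

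The windows from 250 bases before to 50 bases after the start site (RefSeq, GRCh38.p14) are shown for the 3 genes with the highest levels in SK/EPI cells. RefSeq holds 5 start sites for ABCG2, and the window printed is the one nearest to the start of the transcript with the siRNA site. Capitals mark matches on either strand to GGGCGG (the GC box of SP1), GCGTG (AHR with ARNT), ACGTG (HIF1A and EPAS1) or TGACNNNGC (NFE2L2).
SPP1, chr4:87975464-87975763, plus strand: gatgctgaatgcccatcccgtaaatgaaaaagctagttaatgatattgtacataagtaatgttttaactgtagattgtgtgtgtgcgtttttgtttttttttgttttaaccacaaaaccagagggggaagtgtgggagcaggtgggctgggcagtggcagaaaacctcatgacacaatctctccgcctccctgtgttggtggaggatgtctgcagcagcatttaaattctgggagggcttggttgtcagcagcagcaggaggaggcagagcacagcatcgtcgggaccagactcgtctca
PKD2, chr4:88007385-88007684, plus strand: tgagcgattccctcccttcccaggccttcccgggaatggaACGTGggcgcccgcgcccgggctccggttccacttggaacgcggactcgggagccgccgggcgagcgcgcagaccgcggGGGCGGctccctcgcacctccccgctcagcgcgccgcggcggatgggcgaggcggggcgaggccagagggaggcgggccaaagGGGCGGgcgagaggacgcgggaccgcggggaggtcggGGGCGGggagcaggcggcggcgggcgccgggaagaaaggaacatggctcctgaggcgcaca
ABCG2, chr4:88158860-88159159, minus strand: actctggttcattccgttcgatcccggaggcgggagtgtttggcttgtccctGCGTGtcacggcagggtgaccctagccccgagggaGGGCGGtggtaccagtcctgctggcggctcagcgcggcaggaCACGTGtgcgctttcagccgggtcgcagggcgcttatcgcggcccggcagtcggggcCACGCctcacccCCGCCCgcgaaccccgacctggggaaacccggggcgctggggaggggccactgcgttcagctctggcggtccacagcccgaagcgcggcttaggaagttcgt

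The windows differed in composition. GC content was 70.0% for the printed ABCG2 window and 77.0% for PKD2 but 47.7% for SPP1, against a median of 58.7% over 35116 RefSeq windows. They held 33, 44 and 6 CpG, and the median window held 14. The printed ABCG2 window had 6 matches, 2 of which are the overlapping strands of a CACGTG, the PKD2 window had 4 and the SPP1 window had 0. The 5 ABCG2 windows ranged from 40.3% to 72.3% GC, from 3 to 35 CpG and from 0 to 6 matches, and 1 of the others held the TGACNNNGC that the printed window lacks. Of all windows, 45.0% held GGGCGG, 36.5% GCGTG, 21.4% ACGTG and 13.3% TGACNNNGC. The full estrogen response element and the PPAR response element were in none of the windows of the 9 genes with an entry, and in 0.057% and 0.0228% of all windows. A match is a run of letters and does not show binding.

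Expression is given as FPKM, fragments scaled to the length of a gene's exons and to a total per library, as deposited. The whole reads behind each value were recovered, and 15830381 to 20545811 reads per library fell on genes. They made up 99.8% to 101% of the total used for scaling in SK-BR-3 libraries, 92.8% to 95.4% in SK/EPI libraries and 89.5% to 90.7% in the siRNA libraries. How this total was made is not stated, and a share as high as 101% is left unexplained. The epithelial markers EPCAM, KRT8, KRT18, KRT19 and ERBB2 were expressed in all groups, with mean levels from 74.4 FPKM (EPCAM, SK/EPI-siBCRP) to 1651 FPKM (KRT19, SK-BR-3), while CDH1 had at most 0.0736 FPKM on average. ERBB2, the receptor for which SK-BR-3 is known, had 659 FPKM there and 133 FPKM in SK/EPI cells. Of 12 markers of leukocytes, endothelium, fibroblasts and erythroid cells, 8 could be tested. The summed level of all 12 was 9.92 to 10.3 FPKM in SK-BR-3, 55.2 to 58.2 FPKM in SK/EPI, 22.9 to 23.8 FPKM in SK/EPI-siNC and 32.7 to 33.5 FPKM in SK/EPI-siBCRP libraries. In SK/EPI cells most of it was CD14 (27.4 FPKM, 0.513 in SK-BR-3) and CDH5 (27.5 and 6.77 FPKM). PECAM1 (0.129 and 0.00915 FPKM) and PDGFRB (0.300 and 0.0106 FPKM) were near 0 in SK-BR-3 cells and could be tested only through their SK/EPI levels. COL1A1 was lower in SK/EPI cells, and CD3E and VWF did not pass the test. PTPRC, which defines leukocytes, had at most 0.0503 FPKM on average in any group. The part of these markers in the results was not tested. Fewer cells that express a gene and less RNA of it per cell cannot be told apart in bulk RNA.

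ABCG2 was nearly silent in SK-BR-3 cells and among the strongly expressed genes of the region in SK/EPI cells. It had 0.0750, 0.0220 and 0.0520 FPKM in the 3 SK-BR-3 libraries, from 6, 2 and 5 reads, and 33.9, 35.9 and 32.7 FPKM in the 3 SK/EPI libraries. All SK/EPI libraries lay far above all SK-BR-3 libraries. The means were 34.1 ± 1.61 and 0.0497 ± 0.0266 FPKM (SD, n = 3), a ratio of 687 with a 95% Poisson interval of 402 to 1291, which covers counting error only. On the scale of log2(FPKM + 1), which understates the change of low genes, the difference was 5.06 ± 0.052 (SE).

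SPP1, the osteopontin gene, had the highest level of the 10 in SK/EPI cells and was not detected in SK-BR-3 cells. No read fell on it in any SK-BR-3 library, and it had 44.0, 48.1 and 46.1 FPKM in SK/EPI libraries. With 3 reads as the floor of a library, its level in the resistant line was at least 625-fold higher (mean 46.0 ± 2.04 FPKM, SD, n = 3). PKD2, the nearest of the other 9 to ABCG2, was expressed in both lines. Its levels were 2.23, 2.45 and 2.65 FPKM in SK-BR-3 and 29.6, 28.9 and 29.6 FPKM in SK/EPI libraries and did not overlap (means 2.44 ± 0.205 and 29.4 ± 0.433 FPKM, SD, n = 3, log2 difference 3.14 ± 0.050, SE).

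PPM1K and HSD17B11 had low levels that differed about as much in relative terms. PPM1K encodes the mitochondrial phosphatase that activates branched-chain ketoacid dehydrogenase, and it had 0.105, 0.0682 and 0.0646 FPKM in SK-BR-3 and 0.852, 0.866 and 0.864 FPKM in SK/EPI libraries, a ratio of 10.8. HSD17B11, a short-chain dehydrogenase of lipid droplets, had 0.440, 0.614 and 0.474 FPKM and 5.18, 5.36 and 4.25 FPKM, a ratio of 9.68. For both genes every SK/EPI library lay above every SK-BR-3 library. The log2 differences were 0.79 ± 0.039 for PPM1K and 1.97 ± 0.088 for HSD17B11 (SE), the first of them small on this scale, on which low levels count for little.

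The other 5 genes differed by less. HERC3, a HECT-domain ubiquitin ligase, had 3.82, 3.26 and 3.38 FPKM in SK-BR-3 and 5.94, 6.67 and 6.12 FPKM in SK/EPI libraries, 1.79-fold higher in the resistant line. AFF1, a scaffold of the super elongation complex, had 5.65, 5.55 and 5.77 FPKM and 7.17, 6.99 and 7.13 FPKM, 1.25-fold higher. NUDT9, an ADP-ribose hydrolase of mitochondria, was the only one of the 10 with all SK/EPI libraries below all SK-BR-3 libraries, at 9.23, 8.92 and 9.29 against 9.95, 11.0 and 10.3 FPKM. Its log2 difference of -0.17 ± 0.045 (SE) shrank to -0.09 when libraries were scaled by the reads on genes and to -0.08 without the mitochondrial genes. KLHL8, an adaptor of CUL3 ubiquitin ligases, overlapped between the lines (4.60, 4.26 and 3.94 against 4.46, 4.59 and 4.74 FPKM). SPARCL1, a secreted matrix protein related to SPARC, had 1 to 7 reads in SK-BR-3 and 7 to 19 reads in SK/EPI libraries, whose ranges met, and was too low to be tested.

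Thus 9 of the 10 genes passed the filter on low values. ABCG2 and SPP1, with at most 6 reads in any SK-BR-3 library, passed it through the SK/EPI libraries alone. The groups did not overlap for 8 of the 9, and for 77.7% of all 15823 genes tested. Because this contrast was known when the genes were listed, nothing is read from this count.

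**Figure D1:**
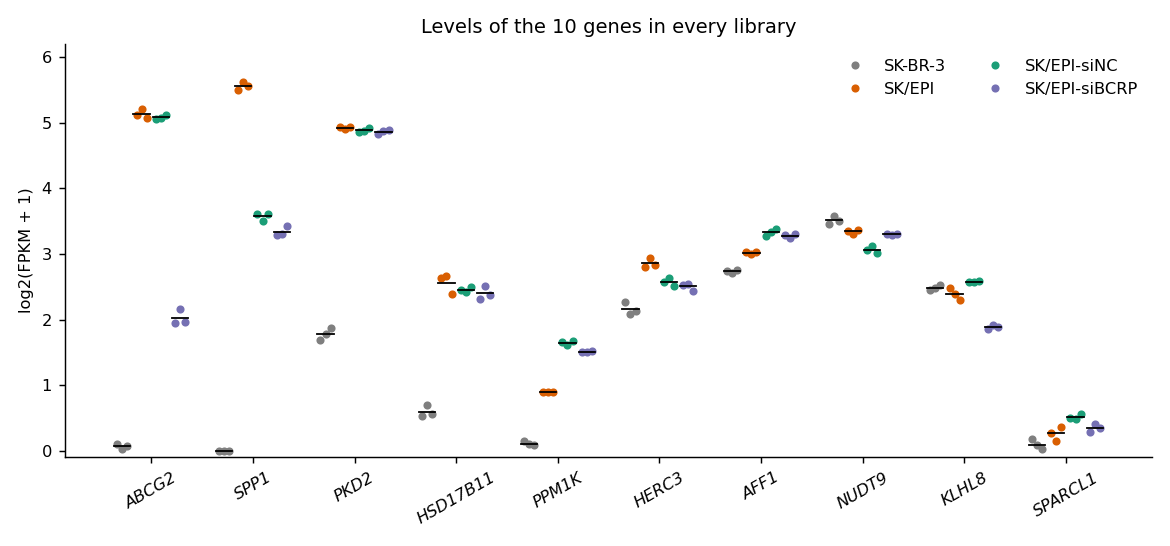
Level of each of the 10 genes in every library, as log2(FPKM + 1) on the vertical axis, with points for the 3 libraries of each of the 4 groups and black bars for their means. ABCG2 and SPP1 stand at or near 0 in SK-BR-3 cells and above 5 in SK/EPI cells, PKD2 is high in SK/EPI cells and in both siRNA groups, and KLHL8 is lowest in SK/EPI-siBCRP cells.

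In the siRNA libraries ABCG2 served as the check of the labels. It had 32.5, 32.7 and 33.7 FPKM in SK/EPI-siNC and 2.84, 3.47 and 2.91 FPKM in SK/EPI-siBCRP libraries. The siBCRP libraries all lay far below the control libraries, with means of 3.08 ± 0.345 and 33.0 ± 0.673 FPKM (SD, n = 3). ABCG2 was 10.7-fold lower with siBCRP, or fell by 3.06 ± 0.059 (SE) on the log2 scale (limma adjusted p = 5.93e-07). The remaining level of 3.08 FPKM still stood above the 0.0497 FPKM of SK-BR-3 cells, which are in the other table and were not tested against it.

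KLHL8 had the largest fall among the other 9 genes. Its levels were 4.94, 4.93 and 5.01 FPKM in SK/EPI-siNC and 2.63, 2.78 and 2.69 FPKM in SK/EPI-siBCRP libraries. The libraries of each group lay close together and the groups were well apart. The mean was 1.84-fold lower with siBCRP (log2 difference -0.69 ± 0.044, SE, limma adjusted p = 3.39e-05). Of all 16298 genes tested, 2.85% passed the test with a fall of at least 0.5 on this scale. Between SK/EPI and SK-BR-3 cells its ranges had overlapped.

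Of the genes that stood highest in SK/EPI cells next to ABCG2, SPP1 moved slightly and PKD2 did not pass the test. SPP1 had 11.2, 10.4 and 11.2 FPKM with the control siRNA and 8.77, 8.85 and 9.69 FPKM with siBCRP. These ranges did not meet, and SPP1 fell by 0.24 on the log2 scale (SE 0.0483, limma adjusted p = 0.00714). PKD2 had 28.1, 28.3 and 29.3 FPKM and 27.5, 28.2 and 28.7 FPKM, which overlapped (log2 difference -0.02 ± 0.027, SE, limma adjusted p = 0.551). HSD17B11, HERC3 and AFF1 overlapped as well, with log2 differences of -0.05, -0.07 and -0.05 and limma adjusted p-values of 0.556, 0.373 and 0.355.

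NUDT9 was the only one of the 10 that rose. It had 7.37, 7.67 and 7.06 FPKM in SK/EPI-siNC and 8.83, 8.79 and 8.87 FPKM in SK/EPI-siBCRP libraries, which did not overlap (log2 difference 0.23 ± 0.037, SE, limma adjusted p = 0.00250). PPM1K had 2.15, 2.05 and 2.19 and 1.84, 1.83 and 1.88 FPKM, without overlap, and did not pass the test (log2 difference -0.14 ± 0.050, SE, limma adjusted p = 0.0687), but did with voom on the recovered reads (adjusted p = 0.00684). SPARCL1 fell from 0.416, 0.393 and 0.480 to 0.222, 0.320 and 0.268 FPKM, on 26 to 33 and 15 to 25 reads (log2 difference -0.17 ± 0.047, SE, limma adjusted p = 0.0259). That call was lost without filter (adjusted p = 0.166), with the replicate block (0.0539), and without siBCRP library 1 (0.0788) or 3 (0.0663) or siNC library 1 (0.0572) or 3 (0.0793).

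In this comparison 5 of the 10 genes passed the test, 1 higher and 4 lower. Among all genes 38.1% passed, 19.4% higher and 18.7% lower. ABCG2 itself was the target, so 4 of the other 9 passed, a count to be read against that 38.1%. None of the 10 rose by 1 or more on the log2 scale, as 0.0675% of all genes did. ABCG2 alone fell by that much, as did 57 of all 16298 genes tested. The groups did not overlap for 6 of the 10, against 50.9% of all genes. The median log2 difference of the 10 was -0.10, and that of all genes -0.0036. Markers moved in the same libraries: all 5 tested epithelial markers were lower with siBCRP, from -0.44 (KRT19) to -0.06 (EPCAM), and of the markers of other cell types CD14 (0.20) and CDH5 (0.65) were higher and 6 did not pass the test. Their part in the changes of the 10 genes was not tested.

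**Figure D2:**
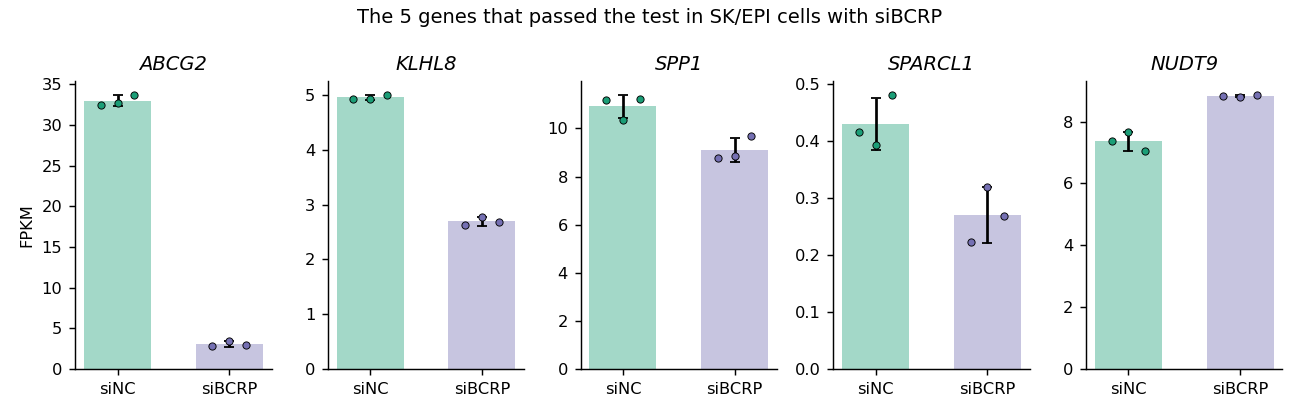
FPKM of the 5 genes that passed the test, in SK/EPI-siNC and SK/EPI-siBCRP cells, with points for the 3 libraries of each group, bars for the mean and black lines for the SD. Each panel has its own vertical axis from 0: ABCG2 and KLHL8 drop clearly, SPP1 and SPARCL1 by less, and NUDT9 is higher with siBCRP.

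**Figure D3:**
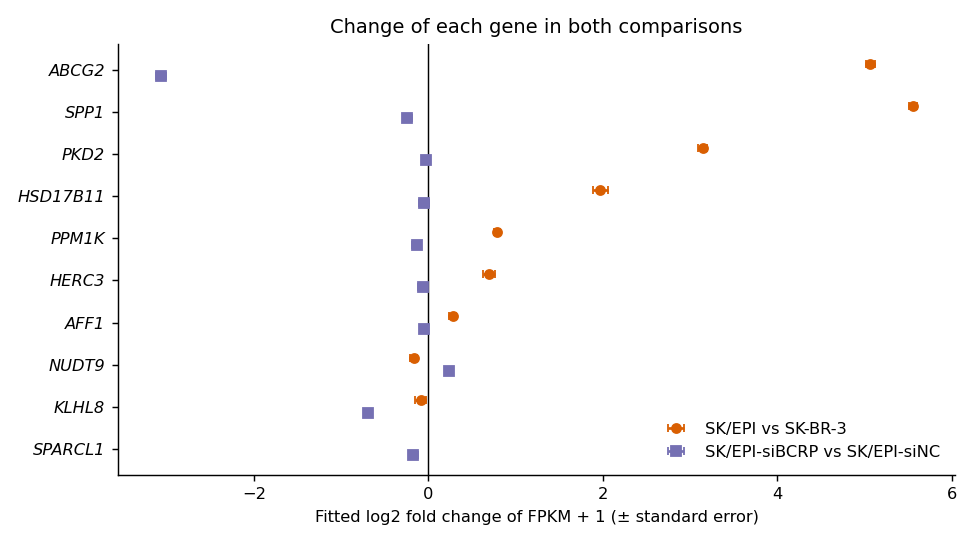
Fitted log2 fold change of FPKM + 1, with its standard error, for each gene in SK/EPI against SK-BR-3 cells (circles) and in SK/EPI-siBCRP against SK/EPI-siNC cells (squares). PKD2 at 3.14 and HSD17B11 at 1.97 in the first lie beside 0 in the second, SPP1 goes from 5.56 to -0.24, and SPARCL1 has no circle because it was not tested there.

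Over the 4 groups the genes did not follow a single order of levels. The tables of the lines and of the siRNA libraries may have been scaled separately, so their levels are set side by side without a test. ABCG2 and PKD2 had like levels in SK/EPI (34.1 and 29.4 FPKM) and SK/EPI-siNC cells (33.0 and 28.6 FPKM), with overlapping ranges, as had HSD17B11. SPP1 had 46.0 ± 2.04 FPKM in SK/EPI but 10.9 ± 0.481 FPKM in SK/EPI-siNC cells. PPM1K stood the other way, at 0.861 and 2.13 FPKM, as did AFF1 at 7.09 and 9.04 FPKM. SK/EPI-siNC cells differ from SK/EPI cells by transfection and by table, and the part of each was not tested.

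Genes of the same families that lie between the 10 added to the picture. HERC5 and HERC6 are ligases of the HERC family known as interferon-induced genes. HERC6 had 0.343 ± 0.0653 FPKM in SK-BR-3 and 7.22 ± 0.227 FPKM in SK/EPI cells (SD, n = 3), 21.1-fold more, and HERC5 had 1 read in all SK-BR-3 libraries and 1.35 ± 0.228 FPKM in SK/EPI cells. In the siRNA libraries HERC6 stood at 21.7 ± 0.142 FPKM with siNC and 19.9 ± 0.455 FPKM with siBCRP (log2 difference -0.12 ± 0.025, SE, limma adjusted p = 0.00795), and HERC5 at 5.66 and 5.85 FPKM (limma adjusted p = 0.528).

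SPP1 belongs to the SIBLING family of mineralized-tissue glycoproteins, whose other members DSPP, DMP1, IBSP and MEPE lie beside it. None of them approached its level. IBSP, the bone sialoprotein gene, was highest of these with at most 0.460 FPKM on average (SK/EPI-siNC), on 3 reads in all SK-BR-3 libraries and 27 in SK/EPI. MEPE had no read in SK-BR-3 and 12 reads in SK/EPI libraries, DMP1 had 0 and 5, and DSPP had none in either line. HSD17B13, the lipid droplet enzyme next to HSD17B11, had 1 read in all SK/EPI libraries and none in SK-BR-3.

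Of the 54 genes within 1 Mb of ABCG2, 18 could be tested in the comparison of the lines. The log2 difference was above 0 in 14 and below 0 in 4 of them, and over all genes in 8036 and 7787. Their median was 0.71 against 0.0084 over all genes, but it was 0.22 without the filter and 1.22 with voom. ABCG2, SPP1, HERC5, RNU1-36P and FAM13A-AS1 had fewer than 10 reads in every SK-BR-3 library and passed the filter through SK/EPI cells. Of the genes left when the 10 are set aside, 9 passed it, with 7 above 0, 2 below 0 and a median of 0.49. The largest differences among these were RNU1-36P at 3.93, HERC6 at 2.62 and HERC5 at 1.22, and the lowest was NAP1L5 at -0.55. RNU1-36P is a copy of U1 small nuclear RNA, with 0 reads in SK-BR-3 libraries and 36 to 51 reads in SK/EPI libraries. Whether reads of near-identical copies fell on it was not tested. The median was 0.79 over 13 genes within 0.5 Mb, 0.41 over 24 within 2 Mb, 0.13 over 37 within 5 Mb and 0.041 over 525 on all of chromosome 4. The share with a log2 difference of at least 1 went from 46.2% within 0.5 Mb to 38.9% within 1 Mb, 10.9% on chromosome 4 and 7.87% of all genes. These values come from the contrast known in advance, and nothing is read from them.

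With siBCRP, 21 of the genes within 1 Mb could be tested. Besides ABCG2, KLHL8, SPP1 and SPARCL1, HERC6 and AC093895.1 (annotated as an antisense RNA, whose reads cannot be told from those of a partner without strand, log2 difference -0.20, limma adjusted p = 0.0252) were lower, and besides NUDT9, RNU1-36P was higher (0.75, limma adjusted p = 0.00831). The 13 others did not pass. The share that passed, 8 of 21 with the target ABCG2 included, equalled that of all genes at 38.1%. By direction 9.52% were higher and 28.6% lower, against 19.4% and 18.7% of all genes. The log2 difference was above 0 in 6 and below 0 in 15. Its median was -0.05, against -0.037 on chromosome 4 and -0.0036 over all genes.

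**Figure D4:**
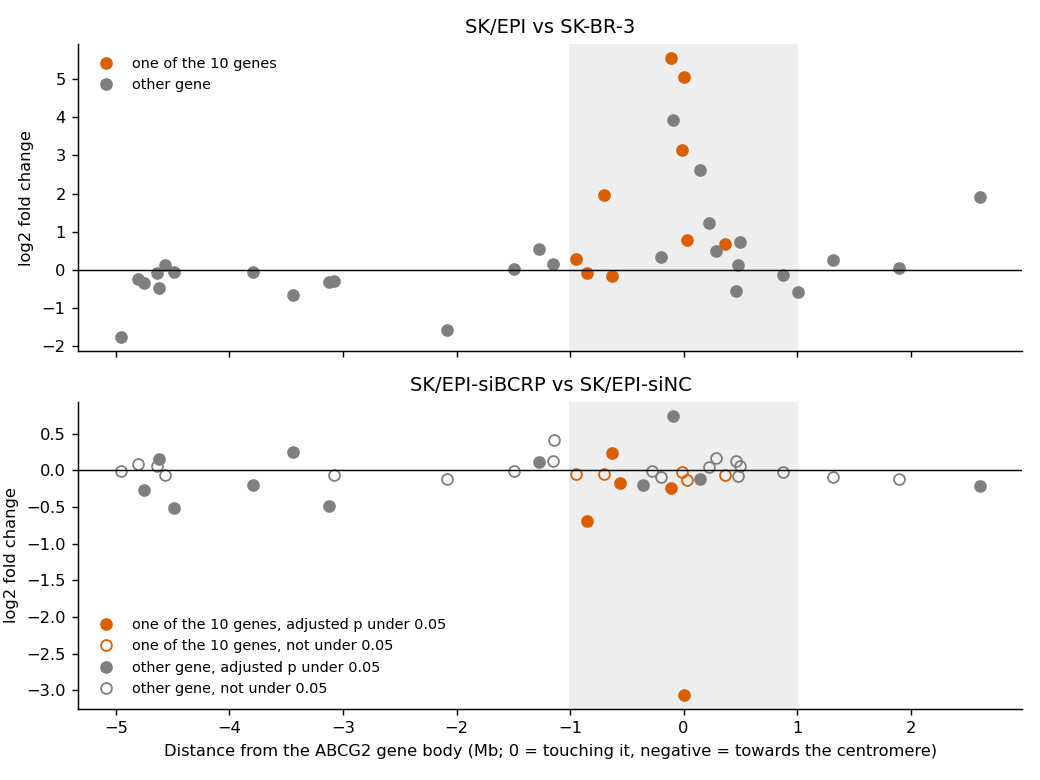
Fitted log2 difference of every tested gene within 5 Mb of ABCG2 (vertical axis) against its distance from the ABCG2 gene body in Mb (horizontal axis), for SK/EPI against SK-BR-3 (upper panel) and SK/EPI-siBCRP against SK/EPI-siNC (lower panel), with the listed genes in orange, other genes in grey and the 1 Mb around ABCG2 shaded. The upper panel shows the contrast known when the genes were listed, so nothing is read from its pattern. In the lower panel ABCG2 at -3.06 stands apart, and open circles mark genes that did not pass the test.

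ABCG1, a cholesterol transporter, was the only other tested member of the ABCG family (ABCG4, ABCG5 and ABCG8 were near 0). It had 1.94 ± 0.263 FPKM in SK-BR-3 and 6.71 ± 0.315 FPKM in SK/EPI cells, and 1.83 ± 0.0831 FPKM with siNC and 2.44 ± 0.182 FPKM with siBCRP (SD, n = 3). The siRNA difference was 0.28 on the log2 scale (limma adjusted p = 0.00930), opposite in sign to that of ABCG2.

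Of 10 transcription factors known to act on ABCG2, 9 could be tested. In SK/EPI cells AHR, NFE2L2, HIF1A and ESR1 were higher, ARNT, EPAS1 and RXRA were lower, and PPARG and SP1 did not pass, where 37.9% of all genes were higher and 37% lower. HIF1A, the oxygen-regulated factor, had 25.4 FPKM in SK-BR-3 and 54.5 FPKM in SK/EPI cells, and EPAS1 had 54.4 and 32.9 FPKM. ESR1, the estrogen receptor, had only 0.128 FPKM in SK/EPI cells. With 5 to 9 reads in SK-BR-3 libraries, it passed the filter on low values through SK/EPI cells. With siBCRP none was higher and 5 were lower, namely ARNT, NFE2L2, EPAS1, ESR1 and SP1, with log2 differences from -0.25 to -0.12, where 19.4% of all genes were higher and 18.7% lower. The median of the 9 was 0.13 in the first comparison and -0.12 in the second, against 0.0084 and -0.0036 over all genes. That 0.13 is the value of ESR1 itself.

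Of 19 known partners of the proteins encoded here, 17 could be tested. In SK/EPI cells 8 were higher and 9 lower (median -0.18), where 74.9% of all genes passed the test. CD44, an osteopontin receptor, differed most, from 0.386 ± 0.0254 to 7.53 ± 0.299 FPKM (SD, n = 3), while the integrin subunits ITGAV, ITGB1 and ITGB5 were lower (-0.25, -0.27 and -0.84). PKD1, the partner of PKD2, had 7.77 and 9.81 FPKM. With siBCRP 4 were higher and 7 lower (median 0.0012), where 38.1% of all genes passed. ITGAV rose by 0.24 and ITGB5 by 0.15 (limma adjusted p = 0.000355 and 0.00466). MLLT3, of the complex that AFF1 scaffolds, fell by 0.40, and DBT, a subunit of the dehydrogenase that PPM1K acts on, by 0.33 (limma adjusted p = 0.00127 and 0.00197). CUL3, to which KLHL8 binds, had 5.46 and 5.46 FPKM (limma adjusted p = 0.986).

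Among the genes compared, the 5 whose levels followed ABCG2 most closely lie on other chromosomes. Over the 12 libraries, the 5 highest Pearson correlations with ABCG2 on log2(FPKM + 1), among 990 genes tested in both tables with a range of at least 2, were those of SPTSSA (0.982), S100A7A (0.982), MGP (0.976), C1orf115 (0.976) and TCHH (0.975). These points come from 4 groups of 3 libraries in tables that may differ in scaling, and libraries of a group share its level. SPTSSA, a subunit of serine palmitoyltransferase, is on chromosome 14. It had means of 123 FPKM in SK/EPI, 39.2 in SK-BR-3, 149 in SK/EPI-siNC and 73.6 in SK/EPI-siBCRP cells. SPP1 ranked 62 (r = 0.880), HSD17B11 151 (0.836) and PKD2 207 (0.816). The other listed genes were not ranked, because they were not tested in both tables or did not reach that range. ABCG2 is the siRNA's own target and the contrast of the lines was known in advance, so nothing is read from these ranks.

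The counting setting for strand is not given in the sources used here, so reads of overlapping genes could have been shared. Overlap with exons of other genes covered 6.57% of the exonic bases of HERC3, 4.80% of HSD17B11 and 0.915% of PPM1K, and none of those of the other 7.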

How the data were processed

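The submitters' notes name HISAT2 2.0.5, featureCounts 1.5.0-p3, DESeq2 1.16.1 and the build hg38, without saying which step made which value. The authors deposited FPKM values, which they had made from aligned reads by scaling to gene length and to a total per library, in 2 tables of 58735 genes and 6 libraries, 1 for the lines and 1 for the siRNA groups. The tables state no unit. Values times the merged exon length in GENCODE 29 were whole multiples of a fixed step in every library (tolerance 0.02 of a read), and were read as FPKM because their sums differed between libraries. All columns were used. Within each group, libraries were further apart than sampling noise (chi-square per degree of freedom 1.64 to 4.27 over 12 pairs).

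The filter asked for 15 reads in all and, in 3 libraries, for 10 reads once scaled to the median library size. The genes left were tested in each table with limma 3.58.1 (R 4.3.3) on log2(FPKM + 1), with a trend and the group alone, with Benjamini-Hochberg adjustment over all genes tested and a threshold of 0.05. A group with 3 reads or fewer in each library was set to the floor of 3 reads for a lower bound of a fold. Intervals are exact Poisson (95%). Reads of PCR-amplified libraries are not independent molecules, so intervals and floors cover counting error only. The steps were tried on simulated data with 200 changed genes (Python 3.11.15, pandas 2.3.3). Between the lines 11854 genes passed the threshold, and 6215 with siBCRP. The simulation therefore does not show error rates for these data.

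The 10 genes and the gene lists were chosen with earlier results of these data known, those of the lines at least. Whether these included the siRNA response is not stated, so its p-values may not be independent of the choice. Named were the 10 genes, the SIBLING, HERC and HSD17B genes beside them, the 3 largest rises and falls within 1 Mb among genes past the threshold, the 5 genes most correlated with ABCG2, and members of the fixed lists, of which 1 marker is not reported here. Alternatives were other filters, scalings, pseudocounts, thresholds and windows, voom on recovered reads, a replicate block, and each library left out.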

Additional observations from a re-analysis of the deposited data

How the results depend on the processing

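With siBCRP, ABCG2, KLHL8, SPP1 and NUDT9 kept their direction and their side of the threshold under all 14 alternatives, and none of the 10 genes changed sign. The ABCG2 difference ranged from -3.13 to -3.02 when a library was left out. In SK/EPI against SK-BR-3 cells, the log2 difference of ABCG2 (5.06) was 5.14 when scaled by reads on genes, 5.22 without mitochondrial genes, 7.85 with a pseudocount of 0.1 and 9.51 with voom. The median within 1 Mb (0.71) was 0.22 without filter, where genes with few reads in all enter. It was 0.59 with 10 reads in every library, 0.77 by reads on genes and 0.80 without mitochondrial genes. It was 0.95 with the pseudocount of 0.1 and 1.22 with voom. For 0.5, 2 and 5 Mb and chromosome 4 it was 0.79, 0.41, 0.13 and 0.041. Within 1 Mb 16 of 18 genes passed the threshold, and 10 with 10 reads in every library, which tests fewer genes. For 5 Mb 29 of 37 passed and for chromosome 4 389 of 525 (74.1%), where 74.9% of all genes did. This contrast was known when the genes were listed, so nothing is read from these counts. A log2 difference of at least 1 left 7 of the 16, and 2278 of the 11854 genes called in all. With siBCRP it left 67 of 6215 genes, and 1 gene, ABCG2, of the 5 listed and 8 nearby genes called. An adjusted p under 0.01 left 3853 genes. The 8 of 21 became 5 of 15 for 0.5 Mb, 16 of 40 for 5 Mb and 193 of 538 for chromosome 4. Of all genes 38.1% passed. The median within 1 Mb (-0.051) was between -0.087 and -0.032 with a library left out.

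Deviations of same-numbered libraries had correlations of -0.058 to 0.020 between the lines and 0.0073 to 0.060 in the siRNA table. Of 6 libraries, 2 and 3 were closest to their own number. Mean correlations for same and different numbers were -0.021 and 0.010 between the lines, and 0.030 and -0.015 in the siRNA table. With 3 libraries per group, these values cannot show whether the numbers mark pairs. The replicate block gave 11656 and 5640 genes past the threshold, of which 11459 and 5373 were shared with the fit without it, and of the 10 genes it changed the call of SPARCL1 alone with siBCRP (adjusted p = 0.0539). Depth limited SPARCL1, IBSP and MEPE, and ABCG2 and SPP1 in SK-BR-3 cells.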
